A study of Homo sapiens with 14 samples.

Results

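Gene expression was compared directly between prostate cancer cells treated with Fucotrim II and the same cells treated with SGN-2FF, 2 inhibitors of fucosylation. The comparison holds 5 of the 14 RNA-sequencing samples of the study: 2 libraries of Fucotrim II and 3 of SGN-2FF, joined gene by gene on the Entrez identifier. Fucotrim II was given at 60 µM and SGN-2FF at 100 µM, each for 72 h, so the doses differed and each fold change below compares these 2 conditions, not equal doses. All samples were CWR22Rv1 cells, a human prostate cancer line, and the labels call the samples of each treatment biological replicates. The 3 DMSO libraries, vehicle-treated cells of the same line, took no part in the test and are given only as a reference level.

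Fucose is a sugar added to the glycans of many surface and secreted proteins, among them adhesion molecules and the Notch receptors. Cells attach it from GDP-fucose, which is made mainly by a de novo route from GDP-mannose, whose first enzyme is GMDS, and also by a salvage route that recycles free fucose through the kinase FCSK. SGN-2FF is 2-fluorofucose, a fucose analogue that the salvage route turns into a GDP-sugar that fucosyltransferases do not use well, whereas Fucotrim II is a rhamnose 1-phosphate derivative aimed at GMDS. The paper describes only a slight effect of Fucotrim II on fucosylation, and states that the Fucotrims also lower GDP-mannose. The 2 conditions may therefore not have blocked fucosylation to the same extent. The question here was where the transcriptomes under these 2 conditions differed.

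The libraries held 12943538 to 16569554 counts with SGN-2FF and 18183854 and 19099194 with Fucotrim II over the 27819 genes present in both tables. The Fucotrim II libraries stood further apart from each other than any other pair of replicates: the chi-square of their counts was 24.2 per degree of freedom, against 1.587 to 4.373 within SGN-2FF and DMSO, and the correlation of their log2 values was 0.98925. Mitochondrially encoded genes took 17.03% of the counts of Fucotrim II replicate 1 and 12.15% of those of replicate 2, against 8.275 to 8.687% with SGN-2FF and 5.98 to 7.032% with DMSO. The values without each Fucotrim II library are therefore given beside the results that they move. The sources used here do not say whether both inhibitors were sequenced in the same run, so a run and a treatment cannot be told apart. The cells expressed markers of luminal prostate epithelium: the luminal keratin KRT18 was at 437 to 642 CPM (each count as a share of its library, scaled between libraries by the trimmed mean of M values) in all 5 libraries, and the basal keratin KRT5 had 5 counts or fewer in every library.

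Of 14619 genes tested with edgeR's quasi-likelihood test, 5717 differed between the inhibitors at a Benjamini-Hochberg adjusted p under 0.05 (39.1%), and these are the genes described as called. With Fucotrim II, 2925 were higher (20%) and 2792 were lower (19.1%). Most differences were small, with a median size of 0.456 on the log2 scale among called genes, and 1919 were beyond 0.58 (13.1%), of which 1221 were higher and 698 lower. Without SGN-2FF replicate 3, 3720 genes were called and 1731 of them were lower, and without SGN-2FF replicate 2, 1812 were lower. The libraries of the inhibitors did not overlap for 8805 genes (60.2%), and for 5705 of those called. Of the 8902 genes not called, 5802 had a 95% interval of the log2 fold change that lay within 0.58 in both directions, and for the rest a difference of that size was not excluded at this number of libraries. The 5717 called genes lay a median of 0.52 from the DMSO mean with Fucotrim II and 0.12 with SGN-2FF (log2 CPM), distances that share the DMSO libraries. These genes were selected by the difference between the inhibitors, so part of that gap is built in. SGN-2FF was the nearer to DMSO in 94.0% of called genes and in 79.6% of all genes tested.

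**Figure D1:**
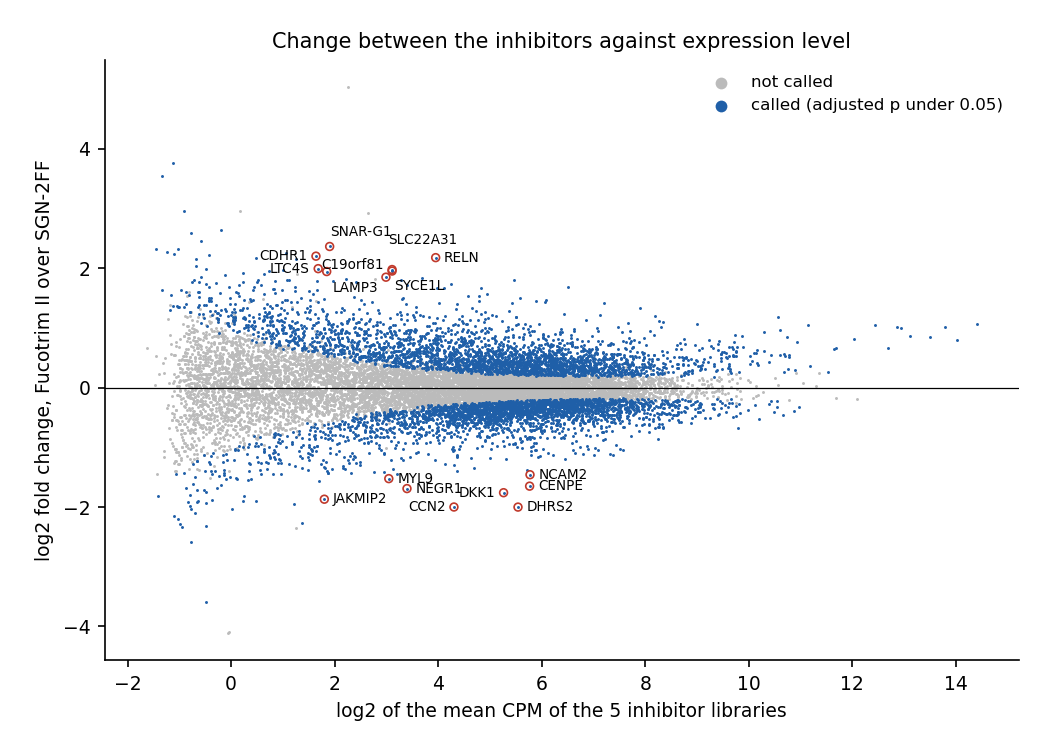
The log2 fold change of each tested gene, Fucotrim II over SGN-2FF, is plotted against the log2 of its mean CPM over the 5 inhibitor libraries, with called genes in blue and the genes with the largest changes circled. Called genes lie on both sides of 0 at every level, and the most highly expressed genes at the far right, all above 0, are mitochondrial transcripts.

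Among called genes that averaged 50 or more counts and whose libraries did not overlap, those lower with Fucotrim II by the largest factors included regulators of adhesion, Wnt signalling and mitosis. DHRS2 (chr14:23630115-23645639, hg38, plus strand), a short-chain dehydrogenase, was at 13.9 and 19.4 CPM with Fucotrim II against 62.8 to 70.2 with SGN-2FF, about 4-fold lower (log2 fold change -2.0002 ± 0.13 SE, adjusted p = 6.02e-06). DMSO libraries held 131 to 145 CPM of DHRS2, so both inhibitors lay below DMSO and Fucotrim II lay lower. CCN2 (chr6:131948176-131951372, minus strand), the connective tissue growth factor and a target of the YAP and TEAD factors, was at 6.81 and 7.29 CPM against 25.8 to 31.8, about 4-fold lower too (-1.999 ± 0.13, adjusted p = 6.02e-06). The secreted Wnt antagonist DKK1 (chr10:52314281-52318042, plus strand) was at 16.6 and 14.98 CPM against 49.6 to 57.05, 3.38-fold lower (-1.76 ± 0.10, adjusted p = 3.41e-06), and its SGN-2FF libraries overlapped the DMSO range of 50.3 to 57.6. CENPE (chr4:103105349-103198445, minus strand), the kinesin that carries chromosomes to the metaphase plate, was at 25.1 and 22.6 CPM against 70.6 to 79.8, 3.14-fold lower (-1.65 ± 0.09, adjusted p = 3.41e-06). The neural adhesion molecules NEGR1 (-1.69 ± 0.16) and NCAM2 (-1.46 ± 0.09), the myosin light chain MYL9 (-1.52 ± 0.20) and JAKMIP2 (-1.87 ± 0.24) completed the 8 largest falls, and in each of them the Fucotrim II libraries lay below all DMSO libraries too.

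The promoter of CCN2 is shown because its gene had one of the largest falls. In the RefSeq promoter sequence (GRCh38.p14, chr6:131951373-131951572, minus strand, the 200 bases before the start), the TEAD letters GGAATG, searched on both strands, occur 3 times and are in capitals. The same letters stood in the 250 bases before the start of 12.8% of tested genes with a promoter sequence.
CCN2: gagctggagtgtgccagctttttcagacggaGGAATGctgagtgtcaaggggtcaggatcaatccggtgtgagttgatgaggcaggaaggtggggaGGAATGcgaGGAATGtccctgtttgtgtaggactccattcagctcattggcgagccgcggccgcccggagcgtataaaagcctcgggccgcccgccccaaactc

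By the same limits, the largest rises were in genes of low to moderate expression. RELN (chr7:103471381-103989658, minus strand), which encodes the extracellular matrix protein reelin, was at 30.2 and 28.0 CPM with Fucotrim II against 5.73 to 6.76 with SGN-2FF, 4.53-fold higher (log2 fold change 2.18 ± 0.11, adjusted p = 3.41e-06). Its SGN-2FF libraries were near the DMSO range of 4.30 to 4.97. The transporter gene SLC22A31 (chr16:89195761-89201651, minus strand) was at 16.1 and 15.2 CPM against 3.62 to 4.48 (1.98 ± 0.14, adjusted p = 7.89e-06). LTC4S, the leukotriene C4 synthase, was at 4.84 and 6.90 CPM against 1.21 to 1.90 (2.00 ± 0.26, adjusted p = 0.000232), and C19orf81 (1.95 ± 0.16) and SYCE1L (1.85 ± 0.15) rose with no overlap of libraries. LAMP3 (chr3:183122215-183163839, minus strand), a lysosome-associated membrane protein, was at 5.85 and 7.07 CPM against 1.36 to 2.34 (1.95 ± 0.24, adjusted p = 0.000183), with DMSO between the inhibitors at 2.40 to 2.80. The highest fitted change, in the small noncoding RNA gene SNAR-G1 (2.37 ± 0.24, adjusted p = 6.67e-05), belongs to a family of near-identical copies among which reads may be split, and its level was 6.69 and 7.86 CPM against 0.836 to 1.74. The photoreceptor cadherin gene CDHR1 (2.20 ± 0.50, adjusted p = 0.0052) rested on 1 library: it was at 9.49 CPM in Fucotrim II replicate 1 and 2.32 in replicate 2, against 1.06 to 1.42, and its log2 fold change was 0.87 without replicate 1. Its call was lost with GC offsets (adjusted p = 0.0703).

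**Figure D2:**
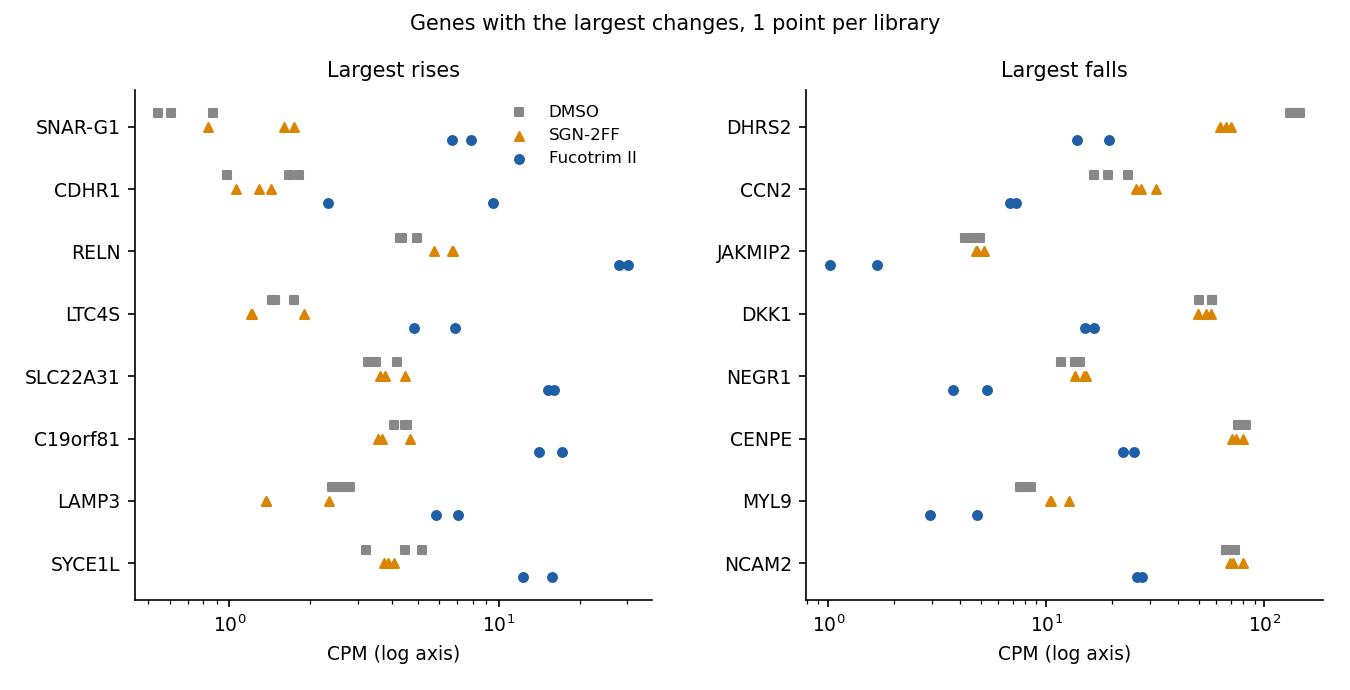
CPM of the 8 genes with the largest rises (left) and the 8 with the largest falls (right) is shown on a log axis, 1 point per library, for DMSO, SGN-2FF and Fucotrim II. The Fucotrim II points lie apart from the SGN-2FF points in all 16 genes, and the 2 Fucotrim II points of CDHR1, 2.32 and 9.49 CPM, are far from each other.

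Genes of cell division were lower with Fucotrim II than with SGN-2FF almost throughout. Of 54 G2 and M phase genes, 51 were called lower and 0 higher, beside 19.1% and 20% of all genes tested. The 54 genes had a median log2 fold change of -0.74, against 0.0026 over all genes. Their summed level was 5830 and 6088 CPM with Fucotrim II, 9458 to 9691 with SGN-2FF and 10346 to 10601 with DMSO. The median was -0.76 without Fucotrim II replicate 1 and -0.76 without replicate 2. The 3 members not called, named after their values were seen, were JPT1 (-0.13), TUBB4B (-0.05) and RANGAP1 (0.07).

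CCNB1, the cyclin that drives entry into mitosis, was at 91.2 and 105 CPM with Fucotrim II against 210 to 215 with SGN-2FF, 2.17-fold lower (-1.12 ± 0.08, adjusted p = 7.89e-06). Its partner kinase CDK1 was at 114 and 98.4 CPM against 159 to 177 (-0.64 ± 0.09, adjusted p = 0.00027), a smaller change. PLK1, the polo-like kinase of the spindle, was at 54.5 and 64.7 CPM against 116 to 134, 2.13-fold lower (-1.09 ± 0.09, adjusted p = 2.58e-05). The proliferation marker MKI67 was at 239 CPM in both Fucotrim II libraries against 374 to 391 (-0.68 ± 0.06, adjusted p = 3.92e-05), and DMSO lay above both at 412 to 423. TOP2A, the topoisomerase of dividing cells, was at 200 and 185 CPM against 315 to 329 (-0.75 ± 0.07, adjusted p = 3.4e-05). CENPA, the histone variant that marks centromeres, was at 9.67 and 7.46 CPM against 18.7 to 21.3, 2.32-fold lower (-1.22 ± 0.13, adjusted p = 9.18e-05).

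Of 42 S phase genes tested, 34 were called lower and 0 higher, beside 19.1% and 20% of all genes tested. Their median was -0.39. E2F8, a repressor of the E2F family, was at 17.0 and 16.6 CPM against 33.1 to 34.1, 2.01-fold lower (-1.01 ± 0.09, adjusted p = 2.82e-05), and RAD51AP1, a factor of homologous recombination, fell by 0.84 on the log2 scale. RRM2, the small subunit of ribonucleotide reductase, was at 239 and 268 CPM against 339 to 350 (-0.45 ± 0.07, adjusted p = 0.000784). The helicase subunit MCM5 (-0.28 ± 0.08, adjusted p = 0.0187) and the replication clamp PCNA (-0.24 ± 0.08, adjusted p = 0.0394) changed less, and the call of PCNA was lost with offsets for GC content (-0.11, adjusted p = 0.191) and without SGN-2FF replicate 1 (adjusted p = 0.0958) or replicate 3 (adjusted p = 0.172), while that of MCM5 was lost without any 1 of the SGN-2FF libraries (adjusted p = 0.0521 to 0.0852). In the G1 list, 6 of 18 genes were lower and 1 was higher, beside 19.1% and 20% of all genes tested. The higher one was CDKN1B, the inhibitor p27, at 286 and 293 CPM against 235 to 241 (0.29 ± 0.06, adjusted p = 0.00446). The lower ones included cyclin E2, CCNE2 (-0.67 ± 0.10, with 37.1% of its exon bases opposite exons of another gene), and CDK6 (-0.49 ± 0.09). CCND1 was at 2148 and 2242 CPM against 2050 to 2117 and was not called (0.08, 95% interval -0.08 to 0.25), and neither was CDKN1A, the inhibitor p21 (-0.07, 95% interval -0.31 to 0.17), though it was lower without Fucotrim II replicate 2 (-0.24, adjusted p = 0.0465).

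Promoters of 3 mitotic genes and 1 replication gene are shown because the genes of these lists fell together and share promoter letters. CHR elements (TTTGAA) and CCAAT boxes are known from promoters of mitotic genes, and TTTCCCGC is a form of the E2F site known from replication genes. All were searched on both strands in the 250 bases before each RefSeq start. TTTGAA stood in a promoter of 26 of 45 G2 and M phase genes with a sequence (57.8%), in 3 of 32 S phase genes (9.38%) and in 11.7% of all tested genes with a sequence. CCAAT stood in 71.1% of the G2 and M phase genes, 71.9% of the S phase genes and 41.3% of all tested. The CCAAT letters are not particular to lists that fell. CCAAT stood in 20 of 21 genes of endoplasmic reticulum chaperones and degradation factors (95.2%), a list with 9 genes higher and 1 lower. TTTCCCGC stood in 1 of 45, in 7 of 32 (21.9%) and in 2.78%. In the 150 bases printed for each gene, CHR elements and CCAAT boxes are in capitals for MKI67 and CDC20, CCAAT boxes alone for TOP2A, where no CHR letters were found, and the E2F site for GINS2, on whichever strand they occur. In MKI67 the last pair shares bases. The genes CDC20, an activator of the anaphase-promoting complex (-1.11), and GINS2, a subunit of the replicative helicase (-0.40), were chosen after their values were seen. The positions in GRCh38.p14 are chr10:128126424-128126573 on the minus strand for MKI67, chr17:40417897-40418046 on the minus strand for TOP2A, chr1:43358831-43358980 on the plus strand for CDC20 and chr16:85688955-85689104 on the minus strand for GINS2.
MKI67: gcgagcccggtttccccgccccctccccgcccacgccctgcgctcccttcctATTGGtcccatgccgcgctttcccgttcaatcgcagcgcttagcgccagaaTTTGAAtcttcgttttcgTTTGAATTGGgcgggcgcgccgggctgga
TOP2A: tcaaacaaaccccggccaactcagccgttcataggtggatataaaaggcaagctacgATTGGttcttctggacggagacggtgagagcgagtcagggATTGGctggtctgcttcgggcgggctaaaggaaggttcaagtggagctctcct
CDC20: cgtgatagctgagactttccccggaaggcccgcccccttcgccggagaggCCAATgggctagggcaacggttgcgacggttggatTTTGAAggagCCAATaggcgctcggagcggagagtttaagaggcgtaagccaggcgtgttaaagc
GINS2: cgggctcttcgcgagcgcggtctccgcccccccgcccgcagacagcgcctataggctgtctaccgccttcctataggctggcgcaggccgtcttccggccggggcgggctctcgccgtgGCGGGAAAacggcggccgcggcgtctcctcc

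**Figure D3:**
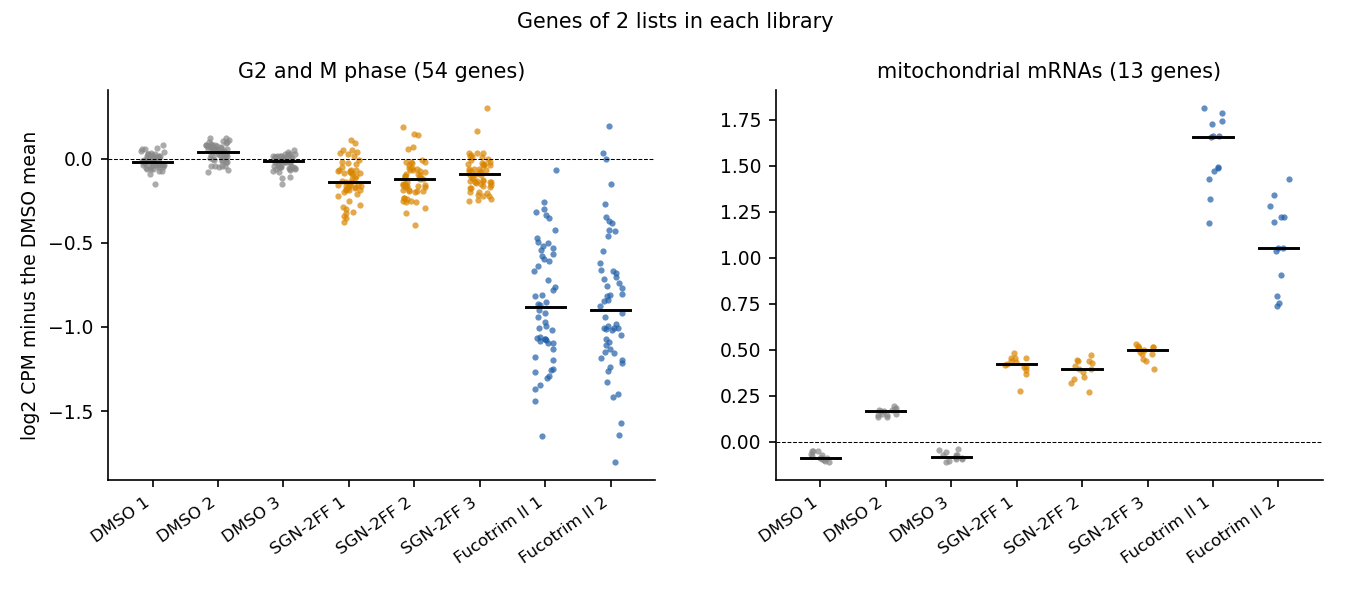
The log2 CPM of each G2 and M phase gene (left, 54 genes) and each mitochondrial mRNA (right, 13 genes), minus the mean of the 3 DMSO libraries, is shown per library, with a black bar at the median of the genes. The G2 and M phase genes are lowest in both Fucotrim II libraries, and the mitochondrial mRNAs are highest in Fucotrim II replicate 1, followed by replicate 2 and then the SGN-2FF libraries.

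Mitochondrially encoded transcripts were higher with Fucotrim II. All 13 mitochondrial mRNAs were called higher, with a median log2 fold change of 1.00, and both mitochondrial rRNAs were higher. COX1, a core subunit of cytochrome c oxidase, was at 38058 and 25275 CPM with Fucotrim II, 14829 to 15594 with SGN-2FF and 10334 to 12171 with DMSO (1.07 ± 0.15, adjusted p = 0.000419). ND3, a subunit of complex I (chrM:10059-10404), was at 2579 and 1970 CPM against 962 to 1048 with SGN-2FF (1.19 ± 0.10, adjusted p = 2.72e-05). The rRNA gene RNR1 was at 1984 and 1529 CPM against 874 to 1000 (0.93 ± 0.11, adjusted p = 0.000118). The groups did not overlap, but the size of the difference depended on the library: the median of the mRNAs was 0.63 without Fucotrim II replicate 1 and 1.18 without replicate 2. The libraries were made from polyadenylated RNA, and the mitochondrial share of each library is the value that moves with this result.

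Within the fucose pathway, GMDS, the enzyme that Fucotrim II is aimed at, was at 12.6 and 17.2 CPM with Fucotrim II, 13.8 to 16.6 with SGN-2FF and 15.4 to 16.6 with DMSO, and was not called (-0.03, 95% interval -0.35 to 0.28). GFUS, which completes the de novo route, had 4 to 15 counts in every library and was not tested. Of 8 tested genes of GDP-fucose synthesis and transport, 3 were higher and 0 lower, beside 20% and 19.1% of all genes tested. The median of the list was 0.17. SLC35C2, a Golgi transporter linked to Notch fucosylation, was at 90.7 and 96.9 CPM against 66.6 to 68.7 (0.48 ± 0.07, adjusted p = 0.000464). FCSK, the fucose kinase of the salvage route, was at 50.8 and 52.5 CPM against 35.7 to 39.7 (0.45 ± 0.08, adjusted p = 0.00146), a call lost with GC offsets (0.12, adjusted p = 0.193). The third was FUCA1, the lysosomal fucosidase (0.35 ± 0.09). The Golgi GDP-fucose transporter SLC35C1 was not called (0.14, 95% interval -0.11 to 0.39), but it was higher without Fucotrim II replicate 1 (0.30, adjusted p = 0.0133).

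Among 8 fucosyltransferases tested, 1 was higher and 2 were lower, not far from the 20% and 19.1% of all genes tested. POFUT2, which fucosylates thrombospondin repeats, was higher at 56.7 and 55.3 CPM against 42.3 to 44.4 (0.38 ± 0.07, adjusted p = 0.00249). FUT8, the core fucosyltransferase, was at 13.1 and 11.6 CPM against 14.97 to 16.1 (-0.32 ± 0.11, adjusted p = 0.0412), and FUT10 was lower by a similar amount (-0.39 ± 0.14, adjusted p = 0.0401). Both calls were close to the threshold and were lost under DESeq2 (adjusted p = 0.132 and 0.133), without any 1 of the SGN-2FF libraries (0.0767 to 0.144) and without Fucotrim II replicate 2 (0.143 and 0.0825). POFUT1, which fucosylates Notch receptors, was not called (-0.11, 95% interval -0.30 to 0.08), but it was lower without Fucotrim II replicate 2 (-0.21, adjusted p = 0.032).

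In the GDP-mannose list, 8 of 20 genes were higher and 0 lower, beside 20% and 19.1% of all genes tested. The median of the list was 0.12, and the rises were concentrated in a few genes. DPM3, the anchor of the dolichol-phosphate mannose synthase, was at 87.7 and 105 CPM with Fucotrim II against 33.8 to 37.0 with SGN-2FF and 26.6 to 32.7 with DMSO, 2.73-fold higher (1.45 ± 0.09, adjusted p = 6.02e-06). Its log2 fold change was 0.99 with offsets for GC content and length, and still called. PMM1, a phosphomannomutase, was at 88.7 and 98.8 CPM against 57.3 to 58.1 (0.70 ± 0.07, adjusted p = 7.73e-05), and GMPPA, the regulatory subunit of GDP-mannose pyrophosphorylase, rose by 0.69. PMM2, the phosphomannomutase needed for N-glycosylation, was not called (0.02, 95% interval -0.16 to 0.20). The catalytic subunit GMPPB was not called either (-0.09), though it was lower with GC offsets (-0.29, adjusted p = 0.00223), and 36.8% of its 100-base transcript windows also occur in AMIGO3. Of 18 genes of the lipid-linked oligosaccharide and of oligosaccharyltransferase, 3 were higher and 2 lower, neither above the 20% and 19.1% of all genes tested. The higher ones were ALG5 (0.38), RPN1 (0.28) and DAD1 (0.25). The lower ones were ALG10B (-0.39) and MAGT1 (-0.18, adjusted p = 0.52 with GC offsets). ALG10B lost its call and its direction with offsets for GC content and length (0.04, adjusted p = 0.718).

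**Figure D4:**
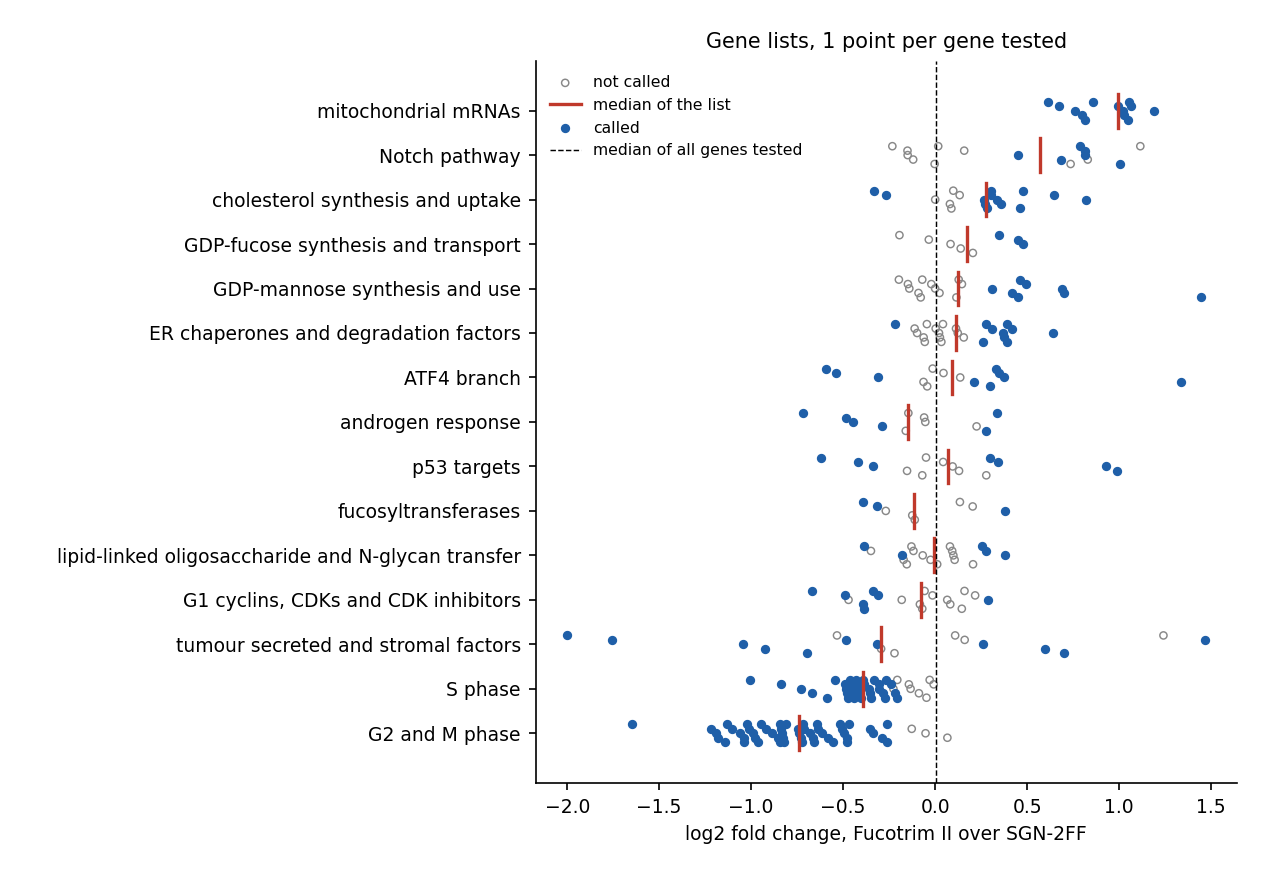
The log2 fold change of each tested member of 15 gene lists is plotted, with called genes filled, the median of each list in red and the median of all genes tested as a dashed line. The mitochondrial mRNAs lie wholly above 0, the G2 and M phase and S phase lists lie almost wholly below it, and the other lists straddle it.

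Cholesterol genes were mostly higher with Fucotrim II, with 11 of 18 higher and 2 lower, beside 20% and 19.1% of all genes tested. Their median was 0.28. MVD, a decarboxylase of the mevalonate pathway, was at 83.7 and 98.2 CPM against 49.7 to 54.3 (0.82 ± 0.09, adjusted p = 7.06e-05). The transcription factor gene SREBF2, which drives this pathway, was at 473 and 520 CPM against 304 to 330 (0.65 ± 0.07, adjusted p = 9.73e-05). With GC offsets, 12 genes of the list were higher and 1 lower.

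The unfolded protein response lists did not move as one. Of 23 endoplasmic reticulum chaperones and degradation factors, 9 were higher and 1 lower, beside 20% and 19.1% of all genes tested. CRELD2, a secreted chaperone of the ATF6 branch, was at 492 and 555 CPM against 322 to 343 (0.64 ± 0.07, adjusted p = 0.000114), and XBP1, the transcription factor spliced by IRE1, was at 311 and 319 CPM against 239 to 242 (0.39 ± 0.06, adjusted p = 0.000762). The lower one was HSPA5, the central chaperone BiP, at 1341 and 1379 CPM against 1574 to 1600 (-0.22 ± 0.07, adjusted p = 0.0292), a call lost with GC offsets (adjusted p = 0.0732) and without any 1 of the SGN-2FF libraries (adjusted p = 0.116 to 0.146). SDF2L1 was higher (0.42 ± 0.10), but its log2 fold change was 0.04 with GC offsets (adjusted p = 0.673). In the list of the ATF4 branch, 6 of 14 genes were higher and 3 lower, beside the same shares of all genes. With GC offsets, however, 2 were higher and 3 lower, and with offsets for GC content and length 1 was higher and 5 lower. The calls lost with GC offsets were those of TRIB3 (adjusted p = 0.811), SESN2 (0.208), PHGDH (0.101) and PPP1R15A (0.0923). In this list, 2 partners of 1 transporter moved in opposite directions. SLC3A2, the heavy chain of amino acid transporters including the cystine importer, was at 341 and 408 CPM with Fucotrim II, 139 to 155 with SGN-2FF and 175 to 186 with DMSO (1.33 ± 0.08, adjusted p = 6.02e-06). SLC7A11, the light chain of that importer, was at 50.8 and 42.2 CPM, 62.4 to 73.8 and 115 to 122 (-0.59 ± 0.10, adjusted p = 0.0013). CHAC1, a glutathione-degrading enzyme, was lower (-0.54 ± 0.15, adjusted p = 0.0174, and 0.0821 without SGN-2FF replicate 2), while ATF4 itself was not called (-0.06, 95% interval -0.20 to 0.08), and DDIT3, the factor CHOP, was only slightly higher (0.21 ± 0.07, adjusted p = 0.0363) and lost its call under DESeq2 (adjusted p = 0.068) and without any 1 of the SGN-2FF libraries (adjusted p = 0.0873 to 0.126) or Fucotrim II replicate 1 (adjusted p = 0.0509).

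Androgen-responsive genes differed between the inhibitors in both directions, and several of them stood above DMSO with both. KLK3, which encodes prostate-specific antigen, was at 47.8 and 44.04 CPM with Fucotrim II, 72.3 to 78.9 with SGN-2FF and 27.4 to 32.0 with DMSO (-0.72 ± 0.08 between the inhibitors, adjusted p = 9.5e-05). The neighbouring kallikrein gene KLK2 was at 111 and 96.3 CPM, 140 to 142 and 57.8 to 59.9 (-0.45 ± 0.08, adjusted p = 0.00118). TMPRSS2, the surface protease, was at 79.3 and 75.8 CPM, 61.3 to 67.8 and 28.6 to 29.8 (0.28 ± 0.07, adjusted p = 0.0127), a call lost without SGN-2FF replicate 2 (adjusted p = 0.0788) or replicate 3 (adjusted p = 0.0607). FKBP5, a co-chaperone of steroid receptors, was also higher with Fucotrim II (0.34 ± 0.07), and HOMER2 (-0.49 ± 0.07) was lower. In all, 2 of 11 genes of the list were higher and 4 lower, beside 20% and 19.1% of all genes tested. In a further list of 12 genes of transcriptional cofactors and their partners, 0 were higher and 3 were lower, beside 20% and 19.1% of all genes tested. The lower ones were GATA2 (-0.40 ± 0.08), NCOA2 (-0.36 ± 0.10) and NCOA3 (-0.32). The call of NCOA3 was lost with GC offsets (adjusted p = 0.0675) and that of NCOA2 with offsets for GC content and length (adjusted p = 0.0631) and without SGN-2FF replicate 2 (adjusted p = 0.0904) or replicate 3 (adjusted p = 0.076).

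NRF2 targets and metallothioneins were lists where both inhibitors lay away from DMSO. In log2 CPM, the NRF2 targets lay a median of -0.57 from DMSO under Fucotrim II and -0.43 under SGN-2FF, and the metallothioneins lay at 1.33 and 1.18. OSGIN1 was at 11.2 and 11.6 CPM with Fucotrim II, 11.7 to 12.9 with SGN-2FF and 27.0 to 30.2 with DMSO, and was not called between the inhibitors (-0.13, 95% interval -0.38 to 0.12), though it was lower with GC offsets (-0.49, adjusted p = 0.00473). TXNRD1, thioredoxin reductase, was at 607 and 640 CPM, 650 to 662 and 1006 to 1017 (-0.07, 95% interval -0.22 to 0.07), and NQO1 was not called (-0.10, 95% interval -0.27 to 0.08) except without Fucotrim II replicate 2 (-0.21, adjusted p = 0.00377). Of 15 NRF2 targets, 2 were higher and 3 lower, not far from the 20% and 19.1% of all genes tested. The lower ones were SLC7A11, GCLM (-0.40, adjusted p = 0.141 with GC offsets) and ME1, the malic enzyme (-0.72 ± 0.10, adjusted p = 0.000441). The metallothionein MT1X was at 53.4 and 58.1 CPM, 40.1 to 45.5 and 16.1 to 18.5 (0.39 ± 0.08, adjusted p = 0.00427, with 11.6% of its 100-base windows shared with another gene), and MT1G was higher by a similar amount (0.36 ± 0.09). They were the 2 of 8 metallothioneins tested that were called, beside 39.1% of all genes tested. MT1G lost its call with offsets for GC content and length (adjusted p = 0.194) and without SGN-2FF replicate 2 (adjusted p = 0.0681) or replicate 3 (adjusted p = 0.0533).

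Pro-apoptotic genes of the BCL2 family moved both ways. BBC3, which encodes PUMA, was at 68.9 and 83.2 CPM with Fucotrim II against 34.3 to 40.9 (0.99 ± 0.10, adjusted p = 6.5e-05), and BMF was at 22.1 and 20.7 CPM against 11.7 to 12.7 (0.82 ± 0.10, adjusted p = 0.000186). Altogether 5 of 15 family members were higher and 4 lower, beside 20% and 19.1% of all genes tested. The lower ones were BCL2 (-0.68), BAK1 (-0.55), PMAIP1 (-0.42) and MCL1 (-0.21), 2 inhibitors and 2 promoters of apoptosis. With GC offsets 4 members lost their calls: PMAIP1 (adjusted p = 0.426) and MCL1 (adjusted p = 0.104) among the lower ones, and BAX (0.04, adjusted p = 0.584) and BOK (-0.07, adjusted p = 0.533) among the higher ones. Of 14 p53 targets, 4 were higher and 3 lower, beside 20% and 19.1% of all genes tested. GDF15, a stress cytokine, was at 237 and 284 CPM against 121 to 158 (0.93 ± 0.11, adjusted p = 0.000134), whereas TIGAR (-0.62) and MDM2 (-0.34, adjusted p = 0.101 with GC offsets) were lower.

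In the Notch list, 6 of 16 tested genes were higher and 0 lower, beside 20% and 19.1% of all genes tested. The median of the list was 0.57, and 0.16 when only genes with at least 10 counts in every library were tested. It was 0.28 without Fucotrim II replicate 1 and 0.40 without replicate 2. Without SGN-2FF replicate 1, 2 or 3 it was 0.58, 0.43 or 0.48. With GC offsets the median was 0.24, and 4 genes were higher and 3 lower. The fringe RFNG, which extends O-fucose on Notch, was at 79.1 and 86.4 CPM against 45.1 to 48.5 (0.82 ± 0.08, adjusted p = 3.57e-05), and the fringes LFNG (0.81) and MFNG (0.79) were higher too. The ligand JAG2 was at 127 and 131 CPM against 79.1 to 81.8 (0.68 ± 0.07, adjusted p = 4.45e-05), and the receptor NOTCH3 was higher (0.45 ± 0.09). With GC offsets the calls of NOTCH3 (adjusted p = 0.116) and MFNG (adjusted p = 0.0733) were lost. The target gene HES4 was higher (1.01 ± 0.12, adjusted p = 0.000136), by 0.35 with GC offsets and 0.27 with offsets for GC content and length, while the target HES1 was not called (0.16, 95% interval -0.03 to 0.34).

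Lists of stress and metabolism are given beside the 20% of all genes called higher and 19.1% called lower, shares from which the synthetases and the glycolysis genes were not far. Of 12 cytosolic heat shock proteins, 6 were lower and 0 higher: the co-chaperone DNAJA1 was at 239 and 249 CPM against 336 to 347 (-0.49 ± 0.06, adjusted p = 0.000266), and HSPH1 fell by 0.47. Of 17 aminoacyl-tRNA synthetases, 5 were lower, among them TARS1 (-0.52 ± 0.07) and EPRS1 (-0.41 ± 0.06), and the 1 higher, CARS1, rested on Fucotrim II replicate 2, with 1.61 and 6.73 CPM against 1.36 to 1.67, and lost its call with GC offsets (adjusted p = 0.108). Of 22 glycolysis and hypoxia genes, 6 were lower, including EGLN3, the oxygen-sensing prolyl hydroxylase (-1.06 ± 0.18), and 3 higher, including the angiogenic factor VEGFA at 163 and 144 CPM against 98.3 to 104 (0.60 ± 0.07, adjusted p = 0.000192). With GC offsets, 14 of these genes were lower. Immediate early genes were split, with 5 higher and 5 lower of 18: JUND was at 405 and 506 CPM against 186 to 230 (1.12 ± 0.11, adjusted p = 3.89e-05) and EGR1 at 36.1 and 40.7 CPM against 66.1 to 85.04 (-0.92 ± 0.11, adjusted p = 0.000185). Interferon-response genes were higher in 4 of 10 and lower in 0, led by ISG20 at 21.1 and 24.1 CPM against 10.2 to 11.3 (1.08 ± 0.11, adjusted p = 6.13e-05) and ISG15 (0.79 ± 0.10).

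Secreted and stromal factors held some of the largest changes, with 7 of 17 lower and 4 higher, beside 19.1% and 20% of all genes tested. Beside CCN2 and DKK1, the matrix protein THBS1 was at 81.4 and 83.9 CPM with Fucotrim II, 167 to 177 with SGN-2FF and 103 to 115 with DMSO (-1.05 ± 0.07, adjusted p = 7.39e-06). IGFBP3, an insulin-like growth factor binding protein, was at 64.5 and 59.99 CPM, 116 to 120 and 193 to 218 (-0.92 ± 0.07). The highest of the rises was S100P, a calcium-binding protein, at 102 and 118 CPM, 37.6 to 44.3 and 23.2 to 25.2 (1.47 ± 0.09, adjusted p = 6.02e-06). THBS1, IGFBP3 and S100P were chosen after their values were seen.

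For some genes the DMSO libraries lay wholly between those of the inhibitors. Beside LAMP3, the rule for such genes named TMEM45A at 4.90 and 4.24 CPM with Fucotrim II, 7.10 to 7.87 with DMSO and 11.8 to 12.99 with SGN-2FF (-1.44 ± 0.14, adjusted p = 4.45e-05). The growth factor gene IGF1 was at 1.85 and 2.15 CPM, 2.84 to 3.71 and 3.92 to 5.75 (-1.36 ± 0.23, adjusted p = 0.00123), and 82.5% of its exon bases overlap exons on the opposite strand, so that without a stated strand setting its reads cannot be told from those of the antisense gene. CCN3 was at 2.15 and 1.75 CPM, 2.72 to 3.44 and 4.56 to 4.68 (-1.24 ± 0.20, adjusted p = 0.000939).

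In another set of genes SGN-2FF was the condition away from DMSO. CYP4F8, a cytochrome P450 of seminal vesicle and prostate, was at 25.5 to 26.9 CPM with SGN-2FF, 11.1 and 10.2 with Fucotrim II and 9.60 to 9.85 with DMSO (-1.29 ± 0.10 between the inhibitors, adjusted p = 1.58e-05). LGR5, an R-spondin receptor and stem cell marker, was at 13.1 to 15.3 CPM with SGN-2FF, 6.39 and 6.16 with Fucotrim II and 5.98 to 6.65 with DMSO (-1.17 ± 0.13, adjusted p = 0.000102). RIPOR2 (-1.34 ± 0.21) and the protease inhibitor gene A2M (-1.16 ± 0.13) were also higher with SGN-2FF than with DMSO. In all 4 genes the Fucotrim II mean was nearer to DMSO, which is how they were chosen.

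Markers of other cell types were checked in the same libraries. Neuroendocrine CHGB was at 89.0 and 83.2 CPM with Fucotrim II against 56.8 to 62.3 (0.52 ± 0.07) and SYP was higher too (0.48 ± 0.09), while CHGA, INSM1 and NCAM1 had 1 count or fewer in every inhibitor library. Of 6 fibroblast markers, COL1A1 was higher (0.63 ± 0.11), LUM was not called (-0.13), and COL1A2, DCN, PDGFRB and THY1 had 10 counts or fewer in every inhibitor library. Among the immune markers, PTPRC and CD3E had 2 counts or fewer. None of the endothelial markers passed the filter. Among luminal markers, KRT18 was higher (0.45 ± 0.07) and so was FOLH1 (0.40), beside TMPRSS2, and KLK3 and KLK2 were among the 3 lower ones of 10.

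The fold changes followed the base composition of the transcripts. Across 13304 genes, the log2 fold change had a Spearman correlation of 0.54 with transcript GC content and -0.25 with log2 length, given as a description across genes of 5 libraries. The median change went from -0.29 in the tenth of genes with the lowest GC content to 0.37 in the tenth with the highest, and called genes were 1.95% higher and 48.9% lower in the first and 54.8% higher and 1.05% lower in the last. Measured against the DMSO mean, the correlation with GC content was 0.42 and 0.64 in the Fucotrim II libraries and 0.39, 0.34 and 0.04 in the SGN-2FF libraries, and single DMSO libraries deviated from their own mean with correlations of -0.38 to 0.28. With offsets that remove the trend from each library, a step added after the data were seen, 5100 genes were called, 2533 higher (17.3%) and 2567 lower (17.6%), and 1342 were beyond 0.58. The median of the G2 and M phase genes was then -0.64 with 50 of 54 lower, that of the S phase genes -0.27 with 29 of 42 lower, and that of the mitochondrial mRNAs 1.0232 with 13 of 13 higher. Genes without a GC value were left uncorrected, among them the mitochondrial COX1, at 1.07 with and without the offsets. Some genes named above kept their calls but changed in size by over 1.5 times. Among those lower with Fucotrim II, CDK1 was then at -0.32, RRM2 at -0.28, RAD51AP1 at -0.52, CCNE2 at -0.33, CDK6 at -0.27, SLC7A11 at -0.27, DNAJA1 at -0.30, HSPH1 at -0.26 and EPRS1 at -0.25, all nearer to 0, while MCM5 (-0.43) and GATA2 (-0.63) were further from it. Among those higher, BBC3 was at 0.47, GDF15 at 0.62, JUND at 0.59, RFNG at 0.41, MVD at 0.43, CRELD2 at 0.39, ISG15 at 0.44, POFUT2 at 0.21, KRT18 at 0.26, SYP at 0.29 and COL1A1 at 0.36. Whether the trend arose in the cells or in the libraries was not tested.

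**Figure D5:**
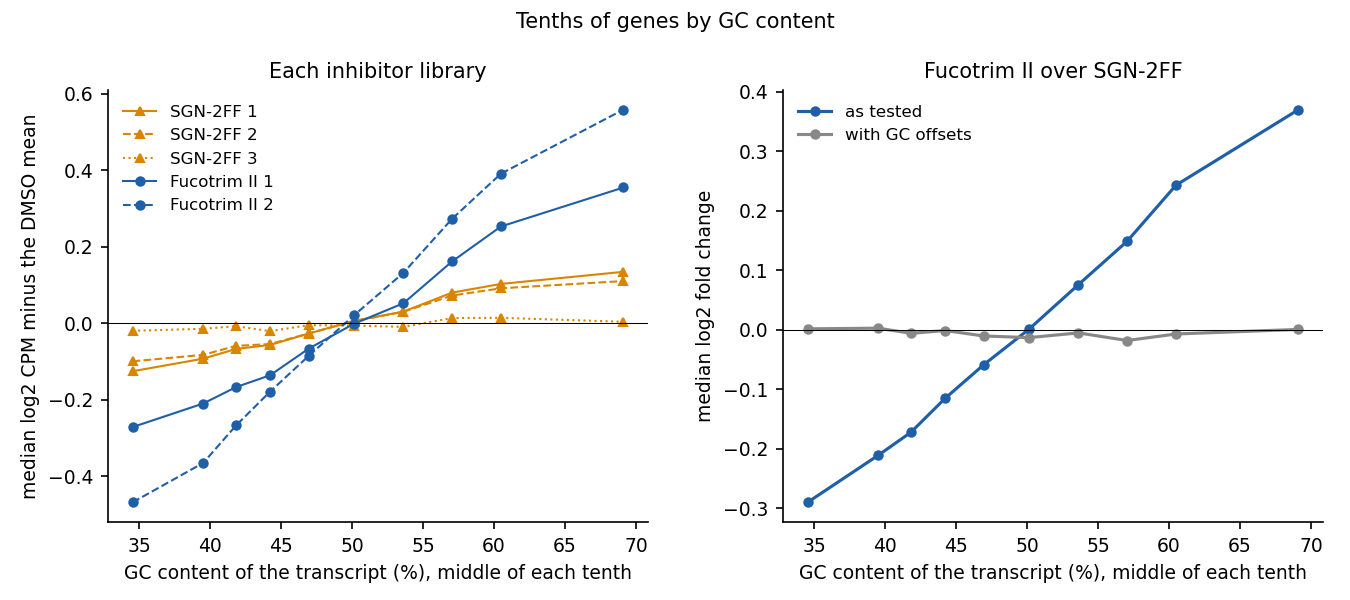
Genes were divided into 10 equal groups by transcript GC content, and the median log2 CPM minus the DMSO mean is shown for each inhibitor library (left), beside the median log2 fold change between the inhibitors as tested and with GC offsets (right). The slope is steepest in Fucotrim II replicate 2, nearly flat in SGN-2FF replicate 3, and absent after the offsets.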

How the data were processed

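RNA was extracted from CWR22Rv1 cells and sequenced as stranded poly(A)-selected libraries. Following the study's methods, reads were trimmed with Cutadapt, mapped to hg38 with HISAT2 and counted with featureCounts in Galaxy. The annotation release, the strand setting and the handling of multi-mapped reads are not given in the sources used here. The deposited values are raw counts per gene, as the authors counted them, in a table per inhibitor that repeats the same DMSO libraries (0 DMSO counts differed between both tables). The 576 genes listed only in the SGN-2FF table were left out. Tables of the other inhibitors were not used here.

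Genes were kept with edgeR 4.0.16 filterByExpr (minimum count 10, total 15). Libraries were scaled by TMM over the 8 libraries, and edgeR's robust quasi-likelihood test was fitted on the 5 inhibitor libraries in R 4.3.3, with Benjamini-Hochberg adjustment over all 14619 genes. Errors are standard errors from the F statistic and intervals are 95%. Alternatives used limma 3.58.1, DESeq2 1.42.0, other scalings and filters, replicate blocks and leaving out each library. The fitting code was tested on simulated counts. Transcript GC content and length came from GENCODE and were matched for 97.8% of genes tested, promoters from RefSeq. The small number of libraries limits the precision.

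The members and gene lists were chosen with earlier results of these data known. Genes named were a fixed set of pathway markers, the 8 largest rises and falls, the 2 largest called changes of each list, 4 with DMSO between the inhibitors and 4 where SGN-2FF departs from DMSO, all but the fixed set limited to genes averaging 50 or more counts, and genes named outside this rule were chosen after their values were seen. The titles number the Fucotrim II libraries 1 and 2, while their library names carry 2 and 3. Some members of the lists are counted but not reported here by name.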

Additional observations from a re-analysis of the deposited data

Results flagged for a closer look

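The SGN-2FF table lists 576 genes that the Fucotrim II table does not, so that they entered no comparison. They were singled out because their counts went unanalysed. They held a median of 0.0553% of the SGN-2FF counts, with 0.05496 to 0.05792% in the 3 libraries. These shares were slightly above the 0.05093 to 0.05409% in the 3 DMSO libraries.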

How the results depend on the processing

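Of 92 called genes among the 106 named, 73 kept their call and direction under all 18 alternatives run for each gene. ALG10B (0.0357, adjusted p = 0.718) and SDF2L1 (-0.0514, adjusted p = 0.507) changed direction with GC and length offsets. The count of called genes was 3442 (1833 higher, 1609 lower) at an adjusted p under 0.01, 4677 with DESeq2, 5709 with limma-voom and 5299 with GC and length offsets. Without 1 library each, 3720 to 7240 genes were called, 1989 to 3698 higher and 1731 to 3542 lower; the lowest counts were without SGN-2FF replicate 3. Whether the replicate numbers pair the samples is not known. Deviations of same-numbered libraries from their group means correlated at -0.351 and 0.0665 by title numbers and at -0.0665 and -0.374 by library names. With 2 Fucotrim II libraries, the deviations of 1 mirror those of the other, so these correlations cannot decide it. With a replicate block by title numbers 3847 genes were called and 1728 were lower, and by library names 3826 and 1737. Under the block by title numbers the S phase median was -0.3638. The G2 and M phase median was -0.6443 with GC offsets and -0.6375 with GC and length offsets, and the S phase median -0.2718 and -0.2649. Without 1 library each, the S phase median was -0.397 to -0.3629, the mitochondrial mRNA median 0.6279 to 1.176, and 0 to 1 G2 and M phase genes were higher (RANGAP1 without Fucotrim II replicate 1). Within 0.32 in both directions lay the intervals of 2684 uncalled genes. The causes of these changes were not tested. With 2 Fucotrim II libraries, leaving 1 out assumes that the other varies like the SGN-2FF libraries.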

Other observations

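Some gene families outside the lists, chosen by symbol after values were seen, are given beside the 20% of all genes called higher and 19.1% called lower. Of 81 cytosolic ribosomal protein genes, 71 were higher with Fucotrim II than with SGN-2FF and 2 were lower, with a median log2 fold change of 0.51, which was 0.50 with GC offsets. They took 5.807 and 6.794% of the counts with Fucotrim II, 4.684 to 4.879% with SGN-2FF and 4.528 to 4.591% with DMSO. Of 19 small nucleolar RNA host genes 11 were higher and 1 lower (median 0.52, and 0.52 with GC offsets).

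Proteasome subunits went the other way, with 20 of 34 lower and 1 higher (median -0.27, and -0.20 with GC offsets). Of 75 mitochondrial ribosomal protein genes, which are encoded in the nucleus, 21 were lower and 7 higher (median -0.10), beside the rise of the mitochondrially encoded mRNAs. Nuclear complex I subunits were near the shares of all genes, with 8 of 35 higher and 5 lower (median -0.02). Protocadherins were lower in 5 of 12 and higher in 2 (median -0.58), and kinesins were lower in 15 of 36 and higher in 6. Members of a family share sequence, and their counts carry no test of the family.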
